A study of Mus musculus with 8 samples.

Results

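Nascent transcription of 8 genes that encode partners of CTCF or other DNA-looping and boundary factors was followed through removal and re-expression of CTCF in mouse embryonic stem cells. The genes were taken by symbol from a list of 9 (Yy1, Zfp143, Maz, Patz1, Adnp, Chd8, Vezf1, Ldb1 and Brd2), and 8 of them are among the 16940 genes of the deposited table. Adnp was not analysed here. The 8 genes also passed the filter on low values, which kept 15818 genes. TT-seq captures RNA made during a short pulse of 4-thiouridine, here 15 min at 400 µM, so that levels follow transcription more closely than total RNA does.

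All libraries came from E14 cells grown without serum in LIF, PD0325901 and CHIR99021, and all carried CTCF fused to an auxin-inducible degron (AID), which lets the auxin IAA trigger destruction of the tagged protein. The control overexpression line served untreated and with 12 h of IAA, and lines overexpressing wild-type CTCF or a mutated CTCF were measured after 12 h of IAA. The labels do not name the mutation, and do not say whether each line is a single clone. Each of the 4 groups had 2 libraries, and nothing in the labels says that these came from separate cultures. The p-values therefore rest on the spread between these libraries, which may be technical. For each gene that spread is also drawn towards that of genes of like level. Every group carries the degron, so an effect of IAA itself and an effect of losing CTCF cannot be told apart, and neither can the CTCF form and the line that carries it.

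Depth was 15671114 to 21561141 recovered reads a library, and the 8 looping-factor genes had 316 to 4262 reads each in a library. Replicates correlated at r = 0.995 to 0.996 across genes on the log2 scale and differed by more than counting error (chi-square of 1.34 to 3.35 per degree of freedom, highest for wild-type CTCF). All 8 embryonic stem cell markers checked were present, with a summed level of 50301 to 54442 normalized reads in the control line and 57431 to 61546 in the lines with added CTCF. Beside the IAA-treated control, 5 were higher and 0 lower with wild-type CTCF, among them Pou5f1 (0.42, adjusted p = 1.9e-06) and Nanog (0.35, adjusted p = 3.9e-10). Mutated CTCF had 6 higher and 0 lower, and IAA in the control line 2 and 2. Against the untreated control the counts were 6 and 0 (wild type) and 6 and 1 (mutated). Shares over all genes are given below. Of 12 markers of other lineages and fibroblasts, 5 were in the table (Gata4, Gata6, Eomes, Pax6 and T), and their sum was 226 to 304 normalized reads. Of the 3 of these that were tested, with IAA Gata4 rose (0.64, adjusted p = 3.6e-04) and Gata6 fell (-0.59, adjusted p = 0.024). With wild-type CTCF beside the IAA-treated control Eomes rose (0.77, adjusted p = 0.0054) and Gata4 fell (-0.52, adjusted p = 0.0041), and Eomes was lower with mutated than with wild-type CTCF (-0.81, adjusted p = 0.0027). Against the untreated control, wild-type CTCF had Eomes higher (0.57, adjusted p = 0.030) and Gata6 lower (-0.54, adjusted p = 0.034). Mutated CTCF had Gata4 higher (0.39, adjusted p = 0.028) and Gata6 lower (-0.80, adjusted p = 0.0021) than that control. The part of all these markers in the results below was not tested. In bulk libraries fewer cells of a type and less RNA per cell cannot be told apart.

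CTCF stops loop-extruding cohesin and so sets many boundaries between chromatin domains, but other proteins bind at or near the same sites. YY1 is a zinc-finger protein that pairs with itself and holds enhancers and promoters together, and ZNF143 (Zfp143) is a promoter-binding zinc-finger protein also found at loop anchors. MAZ, PATZ1 and VEZF1 bind G-rich DNA through zinc fingers and have been described at insulators and boundaries. LDB1 does not bind DNA itself and joins distant elements by dimerising, CHD8 is a chromatin remodeller reported to bind CTCF, and BRD2 is a BET protein that reads acetylated histones. The question put to these genes was whether transcription of any of them rises when CTCF is removed.

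Promoter sequences are shown for Maz and for the other genes whose promoter held a MAZ motif, since MAZ is itself among the genes studied, and for Patz1, which was higher in 5 of the 6 comparisons below. They are RefSeq sequences on GRCm38.p6, 300 bases around the RefSeq start nearest to the 5′ end of the GENCODE gene, and all 8 genes had an entry. RefSeq and GENCODE starts differ, so the windows of Yy1, Zfp143 and Patz1 lie wholly inside the GENCODE gene. That of Ldb1 lies wholly upstream of it. Capitals mark the MAZ motif GGGAGGGG on either strand (CCCCTCCC on the printed strand when it lies on the other).
Maz, chr7:127026956-127027255, minus strand: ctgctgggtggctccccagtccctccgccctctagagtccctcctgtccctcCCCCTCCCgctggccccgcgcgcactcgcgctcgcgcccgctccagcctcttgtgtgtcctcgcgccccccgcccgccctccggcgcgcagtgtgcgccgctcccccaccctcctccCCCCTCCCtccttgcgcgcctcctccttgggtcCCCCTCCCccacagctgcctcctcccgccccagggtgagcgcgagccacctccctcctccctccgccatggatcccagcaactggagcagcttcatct
Brd2, chr17:34122558-34122857, minus strand: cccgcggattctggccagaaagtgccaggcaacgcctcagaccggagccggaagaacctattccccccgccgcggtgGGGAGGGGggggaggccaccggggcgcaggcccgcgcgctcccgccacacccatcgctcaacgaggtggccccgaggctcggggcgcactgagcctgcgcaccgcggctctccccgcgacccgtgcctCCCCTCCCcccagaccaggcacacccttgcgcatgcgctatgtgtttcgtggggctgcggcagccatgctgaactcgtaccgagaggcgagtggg
Ldb1, chr19:46045262-46045561, minus strand: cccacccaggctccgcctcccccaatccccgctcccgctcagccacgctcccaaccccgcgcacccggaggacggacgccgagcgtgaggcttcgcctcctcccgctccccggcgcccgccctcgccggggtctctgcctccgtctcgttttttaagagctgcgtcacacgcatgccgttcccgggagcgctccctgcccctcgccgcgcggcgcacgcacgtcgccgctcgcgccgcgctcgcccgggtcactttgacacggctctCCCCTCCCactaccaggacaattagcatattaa
Patz1, chr11:3288881-3289180, plus strand: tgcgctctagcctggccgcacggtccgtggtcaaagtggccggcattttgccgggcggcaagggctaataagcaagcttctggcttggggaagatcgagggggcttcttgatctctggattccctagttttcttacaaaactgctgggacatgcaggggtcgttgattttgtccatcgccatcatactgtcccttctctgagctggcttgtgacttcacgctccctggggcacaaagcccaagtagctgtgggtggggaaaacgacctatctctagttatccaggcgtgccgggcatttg

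The MAZ motif was present in 3 of the 8 promoters and in 12.2% of 32851 mouse promoters of the same length. In Maz it lay at -198, -81 and -48 from the RefSeq start, in Brd2 at -173 and -45 and in Ldb1 at 17. The Ldb1 match is past the RefSeq start but outside the GENCODE gene, whose 5′ end is at 46045214. Of the 8 promoters, 0 held AGGGGGCGC (the core of the CTCF motif), AANATGGCG (YY1) or ACTACAA (ZNF143), each searched on both strands. Across all promoters these letters were found in 1.25%, 2.38% and 3.24%. G and C made up 71.3% to 74.3% of the Maz, Brd2 and Ldb1 promoters. Of the promoters without the MAZ motif, Vezf1 (84.0%) and Yy1 (81.0%) were richer in G and C, and Chd8 (69.3%), Zfp143 (58.7%) and Patz1 (55.7%) poorer, against a median of 52.7% over all promoters.

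The differences between groups were small beside a 2-fold change. Over 48 pairs of gene and comparison, the largest log2 fold change was 0.53 and the limits of the 95% intervals ran from -0.47 to 0.71, inside the value of 1 that a 2-fold rise would give. Of these pairs, 23 passed as higher and 4 as lower (limma, adjusted p under 0.05 over all tested genes), but many of the tested genes pass in this series, so each count stands beside its background. Each fold change is of log2(value + 1), which understates the change of low genes.

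With IAA in the control line, Maz, Patz1 and Brd2 rose and Yy1 and Ldb1 fell, while Zfp143, Chd8 and Vezf1 did not pass. This is 3 of 8 higher and 2 of 8 lower, where 19.4% of all tested genes were higher and 18.4% lower, and the median log2 fold change was 0.04 over the 8 genes and -0.0017 over all genes. With equal totals the balance turned for both: 2 of the 8 were higher and 3 lower, and 2568 genes of the whole table were higher and 4100 lower. Without replicate 2 of the untreated control the lower genes of the whole table went from 2905 to 1788. The highest upper interval limit of the 8 genes was 0.48, for Maz. Patz1 and Ldb1 were the genes whose calls held when each library was left out in turn. Without the mean-variance trend 0 of the 8 passed, with adjusted p from 0.053 for Ldb1 and 0.059 for Patz1 upwards among the 5 genes. DESeq2 on recovered reads called 3, with 1 higher and 2 lower, beside 2148 higher and 1820 lower over all genes.

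When wild-type CTCF was set beside the control under IAA, 6 of the 8 genes were higher and 0 lower: Ldb1, Brd2, Maz, Patz1, Yy1 and Chd8. Of all tested genes 21.5% were higher and 10% (1584 of 15818) lower, counts that fell to 1961 higher without replicate 2 of wild-type CTCF, to 2212 higher without replicate 1 of the control with IAA and to 933 lower without its replicate 2. Higher genes went from 68.3% to 50.3% of the calls after median-of-ratios rescaling. On that scale, where the median of all genes is 0.00094 rather than 0.057, Ldb1, Brd2, Patz1 and Yy1 still passed and Maz and Chd8 did not. The median of the 8 genes was 0.22 on the authors' scale. Without the mean-variance trend Ldb1 and Brd2 passed, 2 of the 8. With mutated CTCF, 4 of 8 were higher (Ldb1, Yy1, Patz1 and Zfp143) and 0 lower, where 22.0% of all tested genes were higher and 12.4% lower, with a median of 0.14 against 0.055. Median-of-ratios rescaling kept these 4 and added Brd2 as lower, and moved the share of higher calls over all genes from 63.9% to 50.2%. Leaving out replicate 2 of mutated CTCF ended the calls of Patz1 (0.14) and Zfp143 (0.15), and the median over all genes went to 0.035. The control with IAA enters both of these comparisons and the IAA effect, so their directions are not independent of each other.

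Mutated against wild-type CTCF, both with IAA, is a comparison without those control libraries. Zfp143 was higher and Vezf1 and Brd2 were lower with the mutated form, which is 1 of 8 and 2 of 8, where 16.3% of all tested genes were higher and 18.4% lower. Leaving out replicate 2 of the mutated form left Brd2 alone. Set against untreated cells, wild-type CTCF with IAA had 6 of 8 higher (Maz, Patz1, Brd2, Vezf1, Ldb1 and Chd8) and 0 lower, where 27.6% and 15.6% of all genes were higher and lower (lower genes 2461, and 1467 without replicate 2 of the untreated control). Mutated CTCF with IAA had 3 of 8 higher (Patz1, Maz and Yy1) and 0 lower, with 24.0% and 13.7% over all genes (lower genes 2174, and 1412 without that library). Higher genes made up 64.0% and 63.6% of all calls against untreated cells on the authors' scale. Rescaling by median-of-ratios gave 51.8% and 52.1%, and equal totals gave 45.5% and 43.1%. With equal totals the 8 genes gave 3 higher and 1 lower (Zfp143) for wild-type CTCF, and 2 higher for mutated CTCF. With DESeq2 they gave 3 higher and 0 lower for wild-type CTCF, beside 2445 higher and 2197 lower over all genes. For mutated CTCF DESeq2 gave 1 higher and 0 lower, beside 2011 and 1822.

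**Figure D1:**
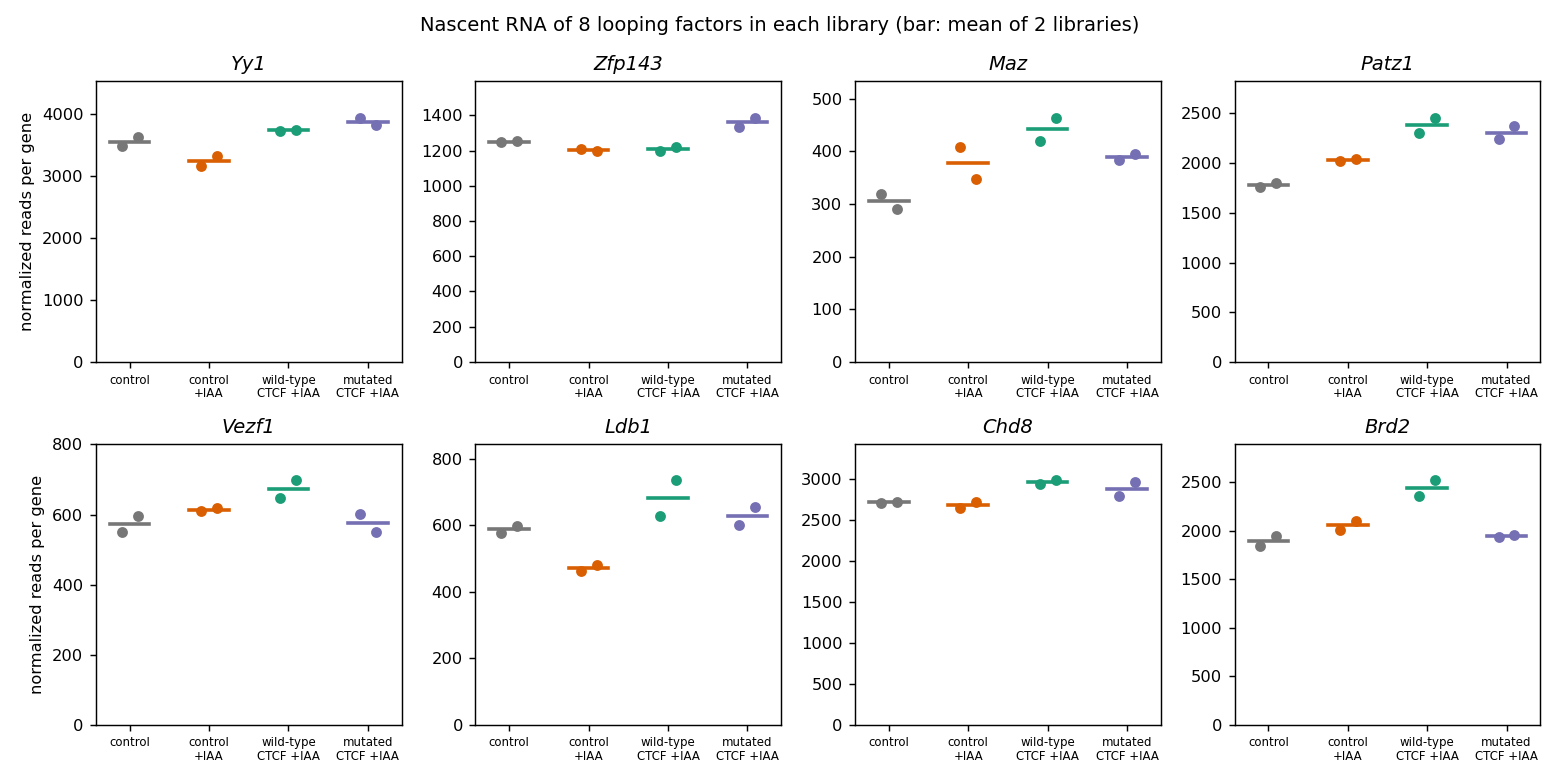
Normalized reads of the 8 genes (y axis, from 0) in each of the 8 libraries, grouped on the x axis by line and treatment; dots are libraries and bars are the mean of the 2 libraries of a group. Ldb1 is lowest in the control line with IAA, and Patz1 is lowest in the untreated control.

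Levels between genes were compared per kilobase of annotated exon, averaged over the 8 libraries. Yy1 stood highest at 562 normalized reads per kilobase, followed by Zfp143 and Patz1 (360.3 and 359.9), Brd2 (266) and Chd8 (170.0), and then Vezf1, Ldb1 and Maz (132, 128 and 127). Within groups the near neighbours changed places: Zfp143 stood at 359 and Patz1 at 301 in the untreated control, and at 347 and 403 with wild-type CTCF. Of the last 3, Ldb1 was highest in the untreated control (128), Vezf1 in the control with IAA (133), and Maz and Ldb1 with wild-type CTCF (149 and 148). Which parts of a gene were counted is not stated, and per kilobase of gene body the order changed: Brd2 led with 196, ahead of Yy1 with 133 and Patz1 with 105, and Zfp143 came last with 36.7.

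Among the zinc-finger factors, Yy1 (ENSMUSG00000021264.12, chromosome 12, 108792973 to 108820148, plus strand) had 3483 and 3637 normalized reads without IAA and 3159 and 3322 with it. The libraries with IAA were both below the untreated ones. With wild-type CTCF Yy1 stood at 3726 and 3756 and with mutated CTCF at 3948 and 3822, all above both control groups. IAA changed it by -0.14 (SE 0.039, adjusted p = 0.0056), a fall that did not pass without replicate 2 of the untreated control (-0.10, adjusted p = 0.090) or replicate 1 of the control with IAA (-0.10, adjusted p = 0.13). The rises with wild-type CTCF (0.21, SE 0.039, adjusted p = 7.7e-05) and mutated CTCF (0.26, SE 0.039, adjusted p = 1.3e-06) passed with each library left out. The libraries of wild-type and mutated CTCF did not overlap at Yy1, but their difference did not pass (0.05, 95% interval -0.03 to 0.13, adjusted p = 0.30). Compared with the untreated control, Yy1 was higher with mutated CTCF (0.13, adjusted p = 0.0099), and did not pass with wild-type CTCF (0.07, adjusted p = 0.14). The call with mutated CTCF was lost with equal totals (0.04, adjusted p = 0.33), on the median-of-ratios scale (0.08, adjusted p = 0.086), with edgeR (adjusted p = 0.081) and with DESeq2 (adjusted p = 0.23). It was also lost without replicate 1 of the untreated control (0.10, adjusted p = 0.13) or of mutated CTCF (0.10, adjusted p = 0.12).

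Zfp143 (ENSMUSG00000061079.14, chromosome 7, 110061217 to 110095394, plus strand) had 1249 and 1253 normalized reads in the untreated control, 1207 and 1196 with IAA and 1196 and 1220 with wild-type CTCF. With mutated CTCF it had 1336 and 1387, above every other library. Neither the IAA effect (-0.06, 95% interval -0.16 to 0.05, adjusted p = 0.40) nor the effect of wild-type CTCF (0.01, -0.10 to 0.11, adjusted p = 0.93) passed, although with equal totals IAA lowered Zfp143 (-0.11, adjusted p = 0.0498). Wild-type CTCF against the untreated control gave -0.05 (adjusted p = 0.45), which became a fall past the threshold with equal totals (-0.13, adjusted p = 0.017) and with edgeR (-0.11, adjusted p = 0.037). Mutated CTCF was higher than the control with IAA (0.18, SE 0.052, adjusted p = 0.0055) and than wild-type CTCF (0.17, SE 0.052, adjusted p = 0.0080). Both calls were lost without replicate 2 of mutated CTCF (0.15, adjusted p = 0.075, and 0.15, adjusted p = 0.087), and the first of them with DESeq2 (0.13, adjusted p = 0.17). The antisense gene 1600010M07Rik covers the whole of Zfp143 at a mean of 182 normalized reads, and the strand setting of the counting is not stated, so the 2 genes may share reads. That gene did not differ in any of the 6 comparisons (adjusted p of 0.80 or more).

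Maz (ENSMUSG00000030678.7, chromosome 7, 127022130 to 127027037, minus strand) was the gene with the fewest reads of the 8. It had 320.1 and 291 normalized reads without IAA, and 409 and 348 with IAA, a spread of 378 ± 43 (SD, n = 2). Wild-type CTCF gave 420 and 464 and mutated CTCF 383 and 395, so the untreated libraries were below all others. The rise with IAA was 0.30 (SE 0.088, adjusted p = 0.0056), and did not pass without replicate 2 of the untreated control (0.23, adjusted p = 0.13) or replicate 1 of the control with IAA (0.19, adjusted p = 0.19), or with DESeq2 (0.31, adjusted p = 0.056). The further rise with wild-type CTCF (0.23, SE 0.088, adjusted p = 0.045) was lost after median-of-ratios rescaling (0.17, adjusted p = 0.12), with equal totals (0.20, adjusted p = 0.072) and with DESeq2 (0.17, adjusted p = 0.38). It was also lost without replicate 2 of the control with IAA (0.11, adjusted p = 0.47) or of wild-type CTCF (0.15, adjusted p = 0.31), and mutated CTCF did not pass (0.05, 95% interval -0.13 to 0.23). Against the untreated control, the rise of 0.53 with wild-type CTCF (SE 0.088, adjusted p = 4.7e-06) was the largest of the 48 differences, and mutated CTCF was higher by 0.35 (adjusted p = 0.0014). The second of these did not pass without replicate 2 of the untreated control (0.28, adjusted p = 0.062) or with DESeq2 (0.30, adjusted p = 0.062).

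Patz1 (ENSMUSG00000020453.17, chromosome 11, 3288874 to 3309083, plus strand) had 1756 and 1803 normalized reads without IAA and 2024 and 2044 with IAA. It had 2301 and 2457 with wild-type CTCF and 2241 and 2374 with mutated CTCF. The order was untreated control, control with IAA, and then the lines with added CTCF, whose libraries overlapped each other. IAA raised it by 0.19 (SE 0.046, adjusted p = 8.5e-04), and wild-type and mutated CTCF raised it further by 0.23 (adjusted p = 2.0e-04) and 0.18 (adjusted p = 0.0018). The last of these did not pass without replicate 2 of mutated CTCF (0.14, adjusted p = 0.064) or with DESeq2 (0.13, adjusted p = 0.065). From the untreated control the rises were 0.42 (SE 0.046) with wild-type and 0.37 (SE 0.046) with mutated CTCF, and each passed under the 15 alternatives run. The 2 forms did not differ at Patz1 beyond their spread (-0.04, 95% interval -0.14 to 0.05). Patz1 overlaps the opposite-strand gene Gm12592 (mean of 54.01 normalized reads), which fell with IAA, and shares 88 bases with Gm11944 on its own strand (mean of 1139), which rose with IAA by 0.49. The part of these reads in the Patz1 values was not tested.

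Vezf1 (ENSMUSG00000018377.10, chromosome 11, 88068279 to 88084729, plus strand) had 551 and 596 normalized reads without IAA, 609 and 618 with it, 647 and 698 with wild-type CTCF and 601 and 549 with mutated CTCF. The wild-type libraries were above all others and those of mutated CTCF overlapped the untreated control. IAA gave 0.10 (95% interval -0.04 to 0.24, adjusted p = 0.29). Mutated CTCF was lower than wild-type CTCF by -0.23 (SE 0.070, adjusted p = 0.011), a call lost without replicate 2 of wild-type CTCF (-0.17, adjusted p = 0.12) or of mutated CTCF (-0.16, adjusted p = 0.15), or with DESeq2 (-0.22, adjusted p = 0.078). Wild-type CTCF was above the untreated control by 0.23 (adjusted p = 0.0077), which was lost without replicate 1 of that control (0.17, adjusted p = 0.14) or replicate 2 of wild-type CTCF (0.18, adjusted p = 0.0998). Equal totals (0.15, adjusted p = 0.059) and DESeq2 (0.17, adjusted p = 0.16) ended it too.

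**Figure D2:**
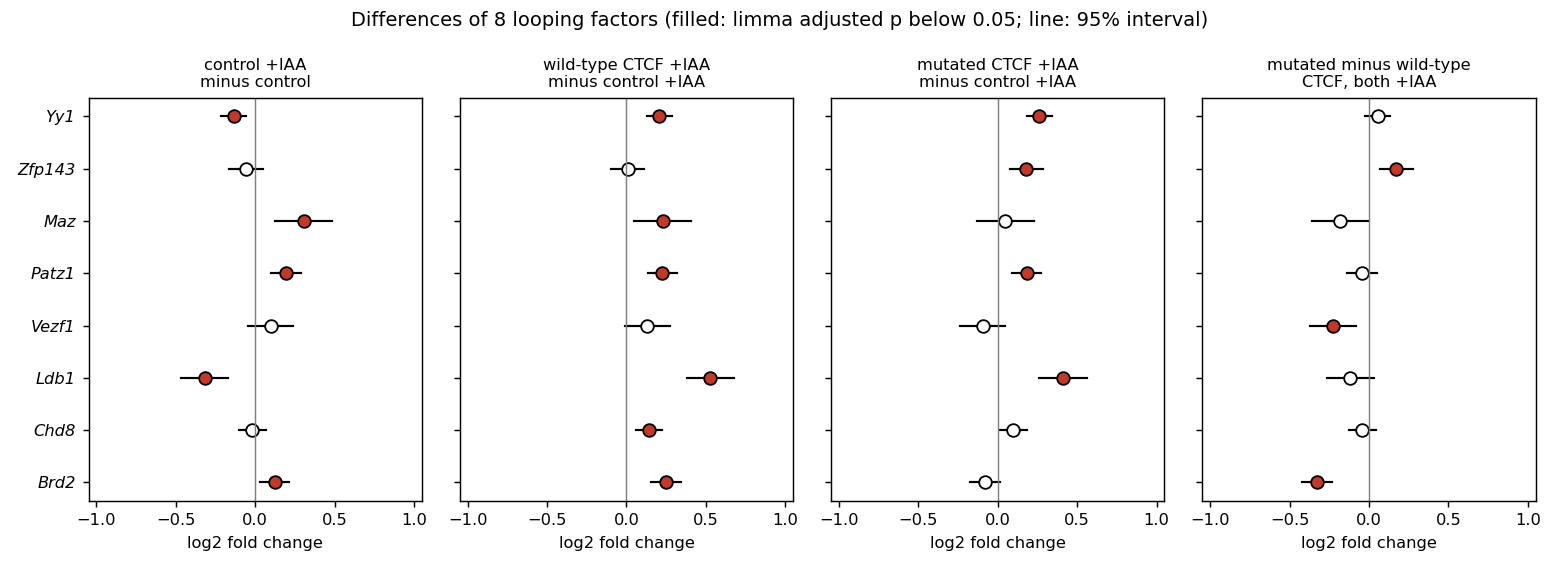
Log2 fold changes of the 8 genes (x axis) in 4 comparisons, with 95% intervals from the limma fit as lines; filled dots passed an adjusted p of 0.05. The intervals end between -0.47 and 0.68, and Ldb1 falls with IAA and rises with either form of CTCF.

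Of the factors that join elements without binding DNA themselves, Ldb1 (ENSMUSG00000025223.15, chromosome 19, 46031570 to 46045214, minus strand) had the largest differences of the 8 genes between the control with IAA and each of the other groups. It had 578 and 597 normalized reads without IAA, and 462 and 480 with IAA, the lowest values of the 8 libraries. With wild-type CTCF it had 629 and 735 and with mutated CTCF 599.7 and 654, all above the untreated control. The fall with IAA was -0.32 (SE 0.074, 95% interval -0.47 to -0.17, adjusted p = 6.1e-04). Wild-type CTCF was higher than the control with IAA by 0.53 (SE 0.074, adjusted p = 4.3e-07) and mutated CTCF by 0.41 (SE 0.074, adjusted p = 2.5e-05), and each of these rises passed under the 15 alternatives, with values from 0.42 to 0.64 and from 0.35 to 0.47. The 2 forms did not differ at Ldb1 (-0.12, 95% interval -0.27 to 0.03), although the difference passed without replicate 1 of wild-type CTCF (-0.23, adjusted p = 0.029). Against the untreated control, wild-type CTCF was higher by 0.21 (adjusted p = 0.0197), a call lost without replicate 2 of wild-type CTCF (0.10, adjusted p = 0.41), without replicate 1 (0.19, adjusted p = 0.15) or replicate 2 (0.23, adjusted p = 0.067) of that control, with equal totals (0.13, adjusted p = 0.11) and with DESeq2 (0.15, adjusted p = 0.22). The opposite-strand gene Pprc1 overlaps Ldb1 by 329 bases and was higher with IAA by 0.30, the other direction from Ldb1. Against the untreated control Pprc1 was higher with wild-type CTCF (0.38), as Ldb1 was. It was also higher there with mutated CTCF (0.31, adjusted p = 7e-06), where Ldb1 did not pass (0.09, adjusted p = 0.35). The part of its reads in the Ldb1 values was not tested.

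The last of the 8 genes encode a chromatin remodeller and a histone reader. Chd8 (ENSMUSG00000053754.14, chromosome 14, 52198151 to 52257780, minus strand) had 2709 and 2724 normalized reads without IAA and 2642 and 2725 with it, which overlap (-0.02, 95% interval -0.10 to 0.07, adjusted p = 0.78). It had 2937 and 2985 with wild-type CTCF and 2791 and 2961 with mutated CTCF, all above the control line. The rise with wild-type CTCF was 0.14 (SE 0.042, adjusted p = 0.0079). It was lost on the median-of-ratios scale (0.09, adjusted p = 0.063), with DESeq2 (0.08, adjusted p = 0.20), and likewise without replicate 1 of the control with IAA (0.12, adjusted p = 0.10) or replicate 2 of wild-type CTCF (0.13, adjusted p = 0.058). Mutated CTCF gave 0.10 (adjusted p = 0.061), which passed without its replicate 1 (0.14, adjusted p = 0.035). Above the untreated control, wild-type CTCF gave 0.12 (adjusted p = 0.0145), lost without replicate 1 of that control (0.12, adjusted p = 0.067) or replicate 2 of wild-type CTCF (0.11, adjusted p = 0.081). That call was also lost with equal totals (0.04, adjusted p = 0.34), on the median-of-ratios scale (0.07, adjusted p = 0.11), with edgeR (adjusted p = 0.12) and with DESeq2 (adjusted p = 0.26). The antisense gene Gm26590 lies over 15702 bases of Chd8 at a mean of 121 normalized reads.

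Brd2 (ENSMUSG00000024335.20, chromosome 17, 34112023 to 34122634, minus strand) had 1839 and 1940.5 normalized reads without IAA and 2008 and 2103 with IAA. With wild-type CTCF it had 2362 and 2519, the highest of the 8 libraries, and with mutated CTCF 1933 and 1959, which overlapped the untreated control and lay below the control with IAA. Mutated CTCF was lower than wild-type CTCF by -0.33 (SE 0.046, 95% interval -0.42 to -0.23, adjusted p = 4.6e-07), and this call held with each library left out. Wild-type CTCF was higher than the control with IAA by 0.25 (SE 0.046, adjusted p = 6.7e-05) and than the untreated control by 0.37 (SE 0.046, adjusted p = 2.3e-08). The rise with IAA was 0.12 (SE 0.046, adjusted p = 0.036), and it was lost with equal totals (0.07, adjusted p = 0.14), with DESeq2 (0.12, adjusted p = 0.075), without replicate 1 of the untreated control (0.08, adjusted p = 0.29) and without replicate 2 of the control with IAA (0.09, adjusted p = 0.27). Mutated CTCF against the control with IAA gave -0.08 (adjusted p = 0.20), which became a fall past the threshold with equal totals (-0.11, adjusted p = 0.023) and on the median-of-ratios scale (-0.13, adjusted p = 0.0094). H2-DMa, which overlaps Brd2 by 3094 bases on the other strand at a mean of 206 normalized reads, did not pass between the CTCF forms (-0.21, adjusted p = 0.13) and was higher with wild-type CTCF than in the untreated control (0.33, adjusted p = 0.013), as Brd2 was. The part of its reads in the Brd2 values was not tested.

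**Figure D3:**
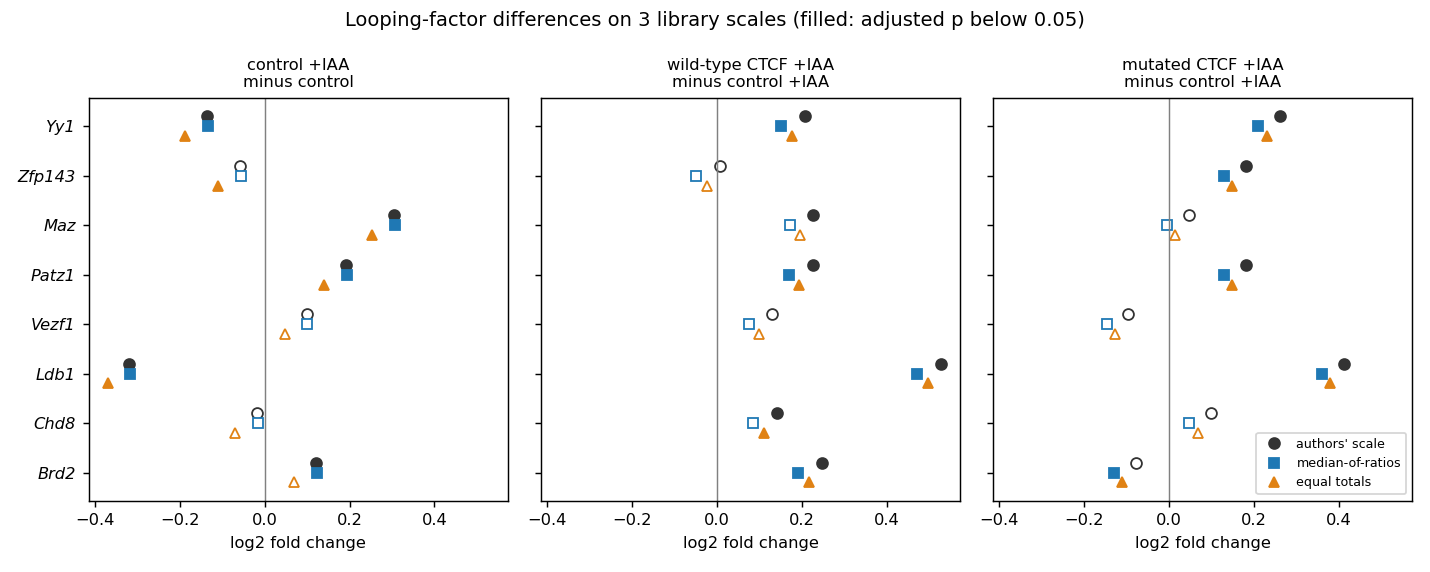
Log2 fold changes of the 8 genes (x axis) on the authors' scale, after median-of-ratios rescaling and with libraries scaled to equal totals, in 3 comparisons; filled symbols passed an adjusted p of 0.05. Ldb1, Yy1 and Patz1 pass on each of the 3 scales in each panel, and Maz and Chd8 lose their rise with wild-type CTCF after median-of-ratios rescaling.

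The 8 genes did not share a single pattern over the libraries. Each gene was centred on its own mean of log2 values, and genes were set against each other by the root mean square difference over the 8 libraries. Among the 28 pairs, Vezf1 and Brd2 were nearest (0.067), followed by Yy1 and Chd8 (0.071), and Maz and Ldb1 were farthest apart (0.24). Over the 11859 other genes with a mean of at least 50 normalized reads, Tfe3 (0.024) and Pctp (0.041) were nearest to Ldb1, and Ube2n (0.021) and Qdpr (0.023) to Yy1. Patz1 was nearest to Gpr107 (0.028) and Git2 (0.031), Maz to Usp5 (0.039) and Xkr6 (0.049), and Brd2 to Mphosph9 and Gtf2f1 (0.028 each). Zfp143 was nearest to Trit1 (0.016) and Elavl1 (0.021), Vezf1 to Ptpn6 (0.029) and Tmed9 (0.030), and Chd8 to Sp1 and Ints9 (0.017 each). Flat genes resemble many others: 384 genes lay within 0.05 of Chd8, 8 within 0.05 of Ldb1 and 2 within 0.05 of Maz.

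Related genes were described from lists chosen beside the 8. The first held 34 binding partners and paralogues, of which 31 were tested, among them the INO80 complex with which YY1 works, HCFC1 and THAP11 as partners of ZNF143, the SSBP proteins that stabilise LDB1, other CHD remodellers and the remaining BET proteins. With IAA 10 of 31 were higher and 4 lower (median log2 fold change 0.06), where 19.4% and 18.4% of all tested genes were. Leaving out either library of the control with IAA moved these counts. The median over all genes then went to 0.015 (without replicate 1) and -0.015 (without replicate 2). Ino80, the ATPase of that complex, rose from 6298 ± 103 to 8089 ± 106 normalized reads (SD, n = 2; 0.36, SE 0.032, adjusted p = 3.6e-12). Brdt, a BET gene best known from the testis, rose from 59.0 ± 3.1 to 102 ± 2.4 (0.78, SE 0.17). Ssbp2 fell from 791 ± 32 to 524 ± 23 (-0.59, SE 0.073, adjusted p = 1.2e-08), and Adnp2, the paralogue of Adnp, fell from 2629 ± 4.5 to 2107 ± 56 (-0.32, SE 0.042).

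Compared with the IAA-treated control, wild-type CTCF had 11 of these 31 higher and 4 lower, and mutated CTCF 9 higher and 6 lower, where 21.5% and 22.0% of all tested genes were higher and 10% and 12.4% lower. On the median-of-ratios scale these became 8 higher and 6 lower, and 6 higher and 8 lower, and all genes moved too, to 2547 higher and 2512 lower and to 2707 higher and 2683 lower. With DESeq2 the lists gave 3 and 4, and 3 and 7, beside 1311 and 1428, and 1477 and 1653, over all genes. The counts with wild-type CTCF became 3 higher and 4 lower without its replicate 2, and 7 and 4 without replicate 1 of the control with IAA. Those with mutated CTCF became 4 and 6 without its replicate 2, and 5 and 5 without replicate 1 of that control. Adnp2 rose with either form (0.34 and 0.48), and Wdr5, a subunit of histone methyltransferase complexes, rose with mutated CTCF (0.42, SE 0.039). Brdt fell under the wild-type form (-0.71) and the mutated form (-0.49), the latter not without replicate 1 of the control with IAA (-0.51, adjusted p = 0.075), its replicate 2 (-0.46, adjusted p = 0.10) or replicate 1 of mutated CTCF (-0.38, adjusted p = 0.19). Chd9 fell with wild-type CTCF (-0.28, SE 0.033). Mcrs1, another INO80 subunit, rose with wild-type CTCF (0.40, adjusted p = 0.0057) but not without replicate 1 of the control with IAA (0.29, adjusted p = 0.12) or replicate 2 of wild-type CTCF (0.28, adjusted p = 0.13). Ssbp2 fell further with mutated CTCF, to 370 ± 6.6 normalized reads (-0.50, SE 0.073, adjusted p = 7.0e-07). Between the forms 4 were higher and 5 lower with mutated CTCF, where 16.3% and 18.4% of all tested genes were. With equal totals they were 7 and 7, beside 2836 higher and 3184 lower over all genes. Leaving out replicate 1 of wild-type or of mutated CTCF moved the counts of this list, and the tested genes as a whole shifted too. Between the forms, their median was -0.0087 with every library. It was -0.038 without replicate 1 of wild-type CTCF and 0.010 without replicate 1 of mutated CTCF. Ssbp3 (-0.43, SE 0.041) and Ssbp2 (-0.43, SE 0.073) were lowest and Wdr5 (0.18) and Chd9 (0.17) highest by the naming rule. Of the other LDB1 partners in the list, Ssbp4 (-0.07, adjusted p = 0.72) and Lmo4 (0.04, adjusted p = 0.87) did not pass.

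The second list held 29 general cofactors of chromosome architecture, such as topoisomerases, Mediator and TFIIIC subunits, condensin II and Satb1, and 28 were tested. With IAA 11 were higher and 6 lower (median 0.0013), beside the same 19.4% and 18.4% over all genes. The balance turned with equal totals (9 higher and 10 lower), and without replicate 2 of the untreated control it was 9 and 2. Med12 (0.54, SE 0.11) and Med14 (0.40, SE 0.045), subunits of Mediator, rose. Satb1 (-0.25, adjusted p = 0.0030, and -0.22, adjusted p = 0.054 without replicate 2 of the untreated control) and Gtf3c4 (-0.24, SE 0.053) fell. With wild-type CTCF 11 were higher and 5 lower (8 and 3 without replicate 1 and 7 and 3 without replicate 2 of the control with IAA, 11 and 3 without replicate 1 and 6 and 4 without replicate 2 of wild-type CTCF), where 21.5% of all genes were higher and 10% lower. On the median-of-ratios scale 6 were higher and 7 lower, and with DESeq2 5 and 6, beside the counts over all genes on those settings given above. On the authors' scale the calls had Ncaph2 (0.37) and Hnrnpu (0.28) highest and Satb1 (-0.39) and Med14 (-0.20) lowest. With mutated CTCF 9 were higher and 4 lower, where 22.0% and 12.4% of all genes were (5 and 7 with DESeq2). On the median-of-ratios scale they were 9 and 7, beside 2707 and 2683 over all genes. With equal totals they were also 9 and 7, beside 3117 and 2474. On the authors' scale Ncaph2 (0.35) and Gtf3c4 (0.35) were highest, and Top1 (-0.20) was among those that fell. Mutated against wild-type CTCF gave 4 higher and 7 lower, where 16.3% and 18.4% of all genes were. Leaving out replicate 1 of either form moved these counts, beside the shifts of all tested genes given above. Satb1 (0.44, SE 0.067) and Gtf3c4 (0.28) were highest, and Npm1 (-0.22) was among those that fell.

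Compared with untreated cells, 15 of the 31 partners and paralogues were higher and 1 lower under the wild-type form, and 14 and 2 under the mutated form (6 and 2 with DESeq2), or 11 and 4 and 7 and 4 with equal totals, where 27.6% and 24.0% of all genes were higher and 15.6% and 13.7% lower. The counts under the mutated form were 9 and 2 without replicate 1 of the untreated control or replicate 2 of mutated CTCF, and those under the wild-type form 12 and 3 without replicate 1 of the untreated control. Ssbp2 fell by more than any other member of the list, from 791 ± 32 to 498 ± 24 normalized reads with wild-type CTCF (-0.67, SE 0.073) and to 370 ± 6.6 with mutated CTCF (-1.09, SE 0.073, adjusted p = 1.4e-15). Ssbp3 was lower with mutated CTCF (-0.24). Chd4, the ATPase of the NuRD complex, rose with either form (0.44 and 0.36), Mcrs1 rose under the wild-type form (0.45) and Wdr5 under the mutated form (0.35). Of the 28 cofactors 13 were higher and 4 lower with either form, and 9 and 9 with equal totals. For mutated CTCF they were 9 and 2 without replicate 1 of the untreated control and 10 and 1 without its replicate 2, and 13 and 2 or 10 and 2 without replicate 1 or 2 of mutated CTCF. For wild-type CTCF they were 13 and 1 without replicate 2 of the untreated control or replicate 1 of wild-type CTCF. Med12 rose in each (0.66 and 0.51), the latter not without replicate 2 of the untreated control (0.33, adjusted p = 0.058). Safb rose under the wild-type form (0.45) and Med1 under the mutated form (0.29). Satb1 fell under the wild-type form (-0.63). Its fall with mutated CTCF (-0.19, adjusted p = 0.023) was lost without replicate 1 (-0.22, adjusted p = 0.065) or replicate 2 (-0.17, adjusted p = 0.16) of the untreated control and without replicate 2 of mutated CTCF (-0.16, adjusted p = 0.16). Gtf3c4 fell under the wild-type form (-0.18), though not without replicate 2 of the untreated control (-0.16, adjusted p = 0.077) or replicate 1 of wild-type CTCF (-0.10, adjusted p = 0.18).

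**Figure D4:**
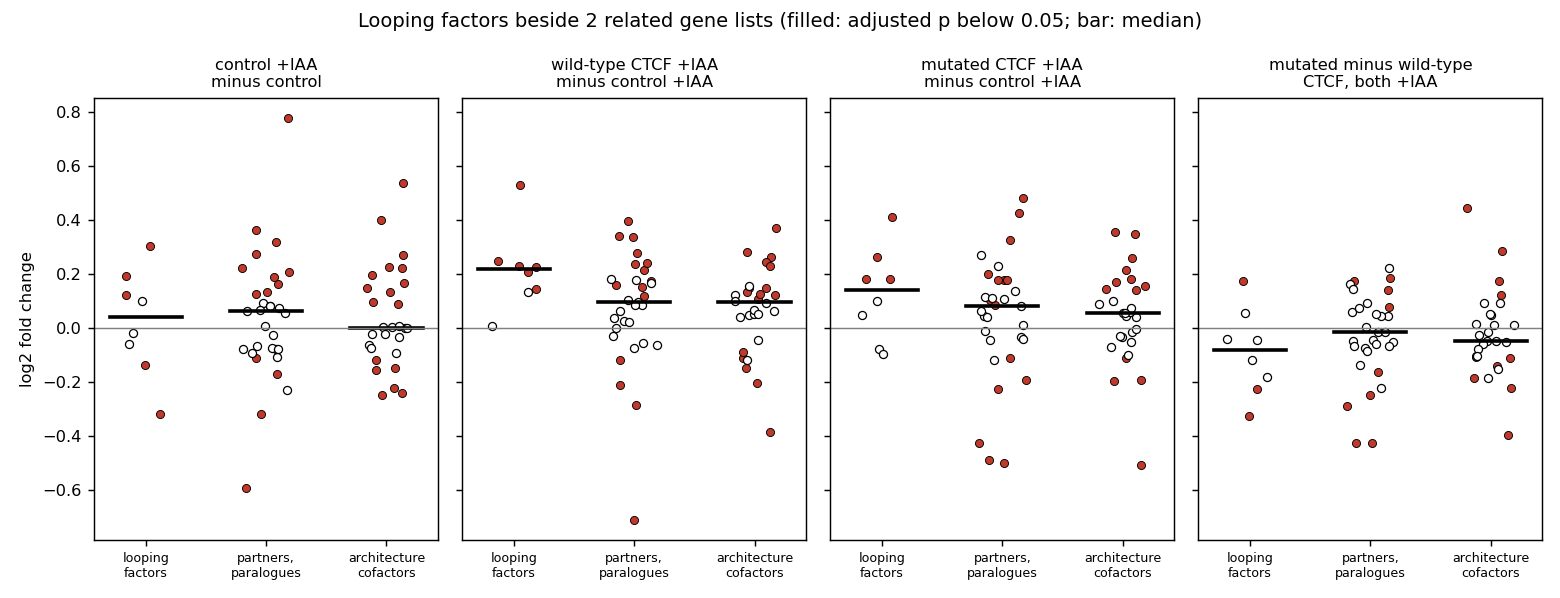
Log2 fold changes (y axis) of the 8 looping-factor genes, 31 partners and paralogues and 28 architecture cofactors in 4 comparisons; each dot is a gene, filled where its adjusted p was below 0.05, and bars are medians. With wild-type CTCF the median of the 8 genes is 0.22, that of the partners 0.096 and that of the cofactors 0.097.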

How the data were processed

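TT-seq was measured in 8 libraries of 4 groups, taken with their replicate numbers from the sample titles. The authors deposited normalized read counts per gene (a signal, not raw counts), and Trim Galore, STAR, featureCounts, DESeq2 and build mm10 are named, with no version or role, in the submitters' processing notes. In each library 100% of deposited values were whole multiples of 1 step (tolerance 0.01 of a read), worth 0.836 to 1.19 normalized reads, so reads could be recovered. The table had 0 columns of other samples. All 8 genes matched GENCODE M21 on GRCm38 (the mm10 assembly) by ID and version.

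limma 3.58.1 (R 4.3.3) was fitted to log2(value + 1) over all 8 libraries, with 1 coefficient per group, 4 residual degrees of freedom and a mean-variance trend, for the 15818 genes with a mean of at least 10. Its empirical Bayes step drew the variance of each gene towards that trend, so the spread used is partly that of other genes. Benjamini-Hochberg adjustment ran over these genes in each of 6 comparisons, with a threshold of 0.05, and intervals are at 95%. All p-values are from this fit unless another tool is named. Alternatives tried were other pseudocounts (0.5, 10), other filters (none, or a mean of at least 50), rescaling by median-of-ratios or to equal totals, the compared groups alone, no trend, the replicate block, leaving out each library, and edgeR 4.0.16 and DESeq2 1.42.0 on recovered reads, where edgeR called 6517 and DESeq2 3968 genes for IAA. Recovered reads carry no molecular identifiers, so counting error is the least error of a value.

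The genes and lists were chosen with earlier results of these data known. All 8 genes are named, and of each list up to 2 highest and 2 lowest calls per comparison, except a gene that is not reported here. The fit was tested on simulated data. The Ctcf gene was not analysed here.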

Additional observations from a re-analysis of the deposited data

How the results depend on the processing

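Over the 8 genes, 6 comparisons and their alternatives, 616 of 720 values kept their direction and side of the threshold, 68 no longer passed, 13 newly passed and 23 changed sign, the last for differences that did not pass before or after. Without the mean-variance trend the genes passing were 0 (IAA), 2 (wild-type CTCF), 3 (mutated CTCF), 2 (between the forms), 3 (against the untreated control, wild type) and 1 (the same, mutated). In the same order the partners and paralogues passing went from 14, 15, 15, 9, 16 and 16 to 9, 6, 8, 4, 10 and 9, and the cofactors from 17, 16, 13, 11, 17 and 17 to 5, 3, 5, 3, 10 and 8. With DESeq2 the calls among the 8 genes were 3 (IAA), 4 (wild-type CTCF), 2 (mutated CTCF), 2 (between the forms), and 3 and 1 (against the untreated control). Leaving out 1 library moved the calls among the 8 genes in each comparison, and moved those over all genes too. Over all genes, IAA called 5967, 3946 without the trend and 3968 with DESeq2. Wild-type CTCF called 4991, 2379 without the trend, 2739 with DESeq2 and 3274 without replicate 2 of wild-type CTCF. For mutated CTCF (5433), mutated against wild type (5489) and mutated against untreated (5975), the counts were 3228, 3263 and 3869 without the trend and 3130, 3460 and 3833 with DESeq2. For wild type against untreated they were 6828, 4878 without the trend and 4642 with DESeq2. With equal totals the share of higher calls with IAA went from 51.3% to 38.5%.

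Sign changes were these. Zfp143 with wild-type CTCF became -0.048 (median-of-ratios), -0.023 (equal totals), -0.0062 (without replicate 2 of wild-type CTCF), -0.049 (edgeR) and -0.049 (DESeq2), with a range of -0.0062 to 0.022 over the left-out libraries. Maz with mutated CTCF became -0.0041 (median-of-ratios), -0.069 (without replicate 2 of the control with IAA), -0.0034 (edgeR) and -0.0096 (DESeq2), with -0.069 to 0.16 over the left-out libraries. Chd8 with IAA became 0.0048 without replicate 1 of the control with IAA, and Patz1 between the forms 0.0034 without replicate 2 of wild-type CTCF (range -0.091 to 0.0034). With equal totals Yy1 became -0.010 with wild-type CTCF against untreated, and Chd8 -0.0017 with mutated CTCF. In that comparison Vezf1 became -0.046 (median-of-ratios), -0.080 (equal totals), -0.052 (edgeR), -0.048 (DESeq2), -0.053 (without replicate 1 of untreated) and -0.062 (without replicate 1 of mutated CTCF, the lowest of a range up to 0.069), and Brd2 -0.0062, -0.040, -0.012 and -0.0092 under the first 4. The cause was not tested.

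The replicate block changed 2 calls of the 8 genes, both newly passing: Chd8 with mutated CTCF (0.10, adjusted p = 0.024) and Zfp143 with mutated CTCF against untreated (0.12, adjusted p = 0.031). It gave 14 calls in place of 9 among the partners and paralogues between the forms, where all genes went from 5489 to 5981. Calls over all genes rose with the block in each comparison, as from 5967 to 6423 with IAA. Deviations of same-numbered libraries correlated at 0.0037 on average (-0.022 to 0.028). That measure removes a shift common to all genes, and replicate 2 stood above replicate 1 in each group (median log2 difference of 0.026 to 0.050). The labels give shared numbers and no pairing, and these values cannot settle whether any exists. Depth limits Maz most, at 316 reads in its lowest library.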
